A study of Schizosaccharomyces pombe with 9 samples.

Results

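In the fission yeast Schizosaccharomyces pombe, 153 coding genes were lower in an aps1 deletion strain and higher in an asp1-D333A strain than in wild type (WT). They were chosen from the counts themselves. A coding identifier became a member where its mean over all 9 libraries was at least 3 CPM (counts scaled to a common library total), its mean in the aps1 deletion was at most 0.77 of the WT mean, and its mean in asp1-D333A was at least 1.3 times the WT mean. Of 6986 identifiers counted, 5146 were coding, 4839 of these reached 3 CPM, and 4766 remained after identifiers and cosmid clones listed in the rule were set aside. A further 23 identifiers that met both ratios were set aside by that list, among them the iron-uptake genes fio1, fip1 and frp1. The opposite pattern, at least 1.3 times WT in the deletion strain and at most 0.77 of WT in asp1-D333A, was met by 32 coding genes. Both numbers depend on scaling by total counts. With it the median log2 change of all features tested was -0.06 in the deletion strain and 0.14 in asp1-D333A, the directions of the members. The 32 were not recounted under another scaling. Of the 153 members 150 are annotated as protein-coding and 2 as pseudogenes, 1 was not matched to the annotation, and 26 have an uncharacterized product.

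Inositol pyrophosphates are signalling molecules in which an inositol ring carries phosphates and diphosphates. Asp1 has a kinase domain that makes them and a pyrophosphatase domain that removes them, and Aps1 is a Nudix-type enzyme that also breaks them down. The D333A change disables the kinase domain of Asp1, so breakdown by Aps1 is impaired in one strain and synthesis by Asp1 is blocked in the other. In this yeast these molecules are best known for their effect on the phosphate-uptake genes pho1, pho84 and tgp1, which are kept low by transcription of long non-coding RNAs upstream of them and by where that transcription ends.

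The study asked how the balance of these molecules acts on phosphate genes and on RNA 3'-end formation. Its groups were an aps1 deletion strain, an asp1-D333A strain and WT, with 3 libraries each. All were vegetative log-phase cultures in YES, a rich medium, at one temperature. Poly(A) RNA was sequenced as read pairs after a stranded library preparation. Each genotype is given by 1 strain number, so a strain effect cannot be told apart from a genotype effect, and the labels do not say whether replicates are separate cultures, so p-values measure the spread between these libraries. The libraries held between 18244492 and 22999732 counts. Reads of aps1 in the deletion strain remained at 5.27% to 8.50% of the WT mean CPM; how much of the gene was removed is not stated in the sources used here. The D333A allele is a single-codon change that counts per gene do not show. In bulk RNA, fewer cells of a type and less RNA per cell cannot be told apart. Replicate 3 of asp1-D333A stood apart from the other 2 libraries of that strain, and the members that depend on it are named with its values.

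The 2 ratios that chose the members are described here without a test, and both use the same 3 WT libraries. The ratio of the aps1 deletion to WT had a median of 0.708 over the 153 members, within 0.173 to 0.7699, beside 0.976 over the 5003 coding features tested. The ratio of asp1-D333A to WT had a median of 1.71, within 1.31 to 17.2, beside 1.07 over those 5003. Most members were modestly lower in the deletion: 104 had more than 0.67 of the WT level there and 20 had 0.5 or less. In asp1-D333A 42 members reached 2 times WT and 12 reached 4 times WT, and 122 of the 153 departed further from WT in asp1-D333A than in the aps1 deletion. Both changes were at least 2-fold in 14 members.

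**Figure D1:**
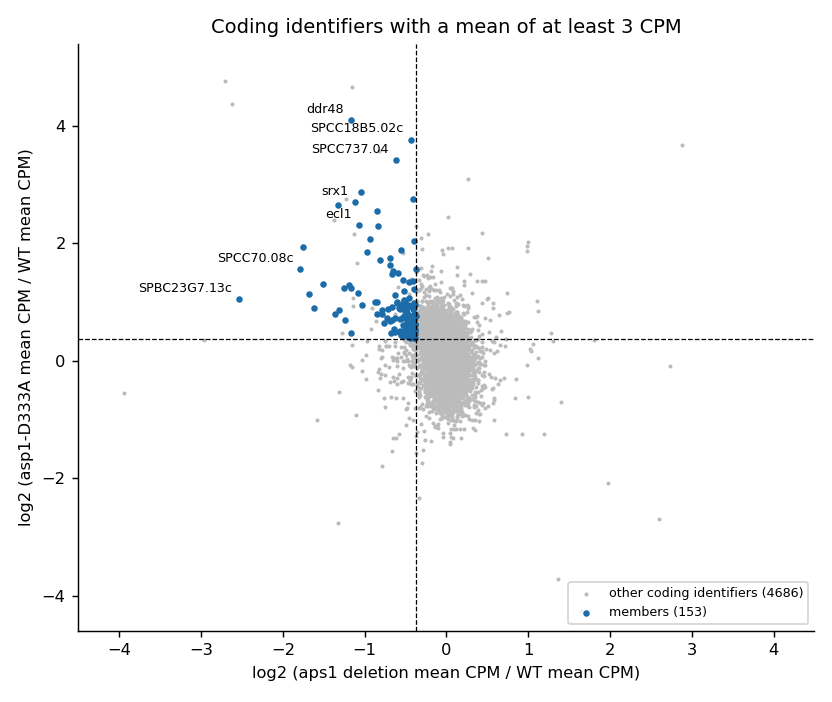
Each dot is 1 of 4839 coding identifiers with a mean of at least 3 CPM. The horizontal axis is the log2 ratio of the aps1 deletion mean to the WT mean, the vertical axis that of the asp1-D333A mean to the WT mean, and dashed lines mark ratios of 0.77 and 1.3. The 153 members fill the upper left corner, most of them close to the vertical line, and grey dots there are the 23 identifiers set aside by name.

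The thresholds cut through a continuous cloud. Just inside the lower threshold lay SPCC569.09, wos2 and ser1, with ratios of 0.7699, 0.7696 and 0.769, and just outside it alp31, zym1 and dad1, with 0.771 for all 3 after rounding. Just inside the upper threshold lay SPBC8E4.03, vps32 and SPAC17G6.03, with ratios between 1.31 and 1.32, and just outside it sro1, rhp16 and SPAC9G1.14, with ratios between 1.28 and 1.298. With library sizes scaled by TMM, edgeR's trimmed mean of M values, in place of totals, 93 of the 153 genes still met the rule. TMM-scaled log2 changes against WT were at most -0.32 in the deletion strain and at least 0.26 in asp1-D333A for all 153 members. The scaling thus moved genes across the thresholds. TMM factors ran from 0.912 to 1.10, too narrow a range to turn the direction of a gene past both thresholds. The kept directions therefore follow from the rule. Without aps1 deletion replicate 1, 271 genes met the rule, 145 of them among the 153.

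Members were also counted by library. In 127 members all 3 aps1 deletion libraries lay below all 3 WT libraries, which held for 21.3% of the 5003 coding features tested. All 3 asp1-D333A libraries lay above all 3 WT libraries in 149 members, against 40.5% of coding features. Both separations held in 123 members, against 10.2%. In edgeR's quasi-likelihood test at an adjusted p under 0.05, 98 members were called lower in the aps1 deletion, 144 were called higher in asp1-D333A, 95 were called both ways and 6 neither way. Over all 6147 features tested 9.83% were called lower in the deletion strain and 30.3% higher in asp1-D333A, and over coding features 5.96%, 27.4% and, for both calls together, 2.66%. Between the strains, all 153 were called lower in the aps1 deletion than in asp1-D333A, against 34.9% of all features and 29.4% of coding ones. Since the rule used these contrasts, nothing is read from these shares.

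Together the members took 1.21% to 1.26% of the counts of the aps1 deletion libraries, 2.80% to 3.41% of the asp1-D333A libraries and 1.79% to 1.86% of the WT libraries. The lowest asp1-D333A share belonged to replicate 3, and the ranges of the 3 strains did not overlap. Grouped by annotated product, after the members were known, they fell into 11 named classes and 33 genes with no described role. Classes close to nutrient and stress responses are described first. Counts of genes whose libraries separated in both strains stand beside 123 of all 153 members and 10.2% of coding features. The rule chose the members from the same libraries, so nothing is read from these counts for a class.

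**Figure D2:**
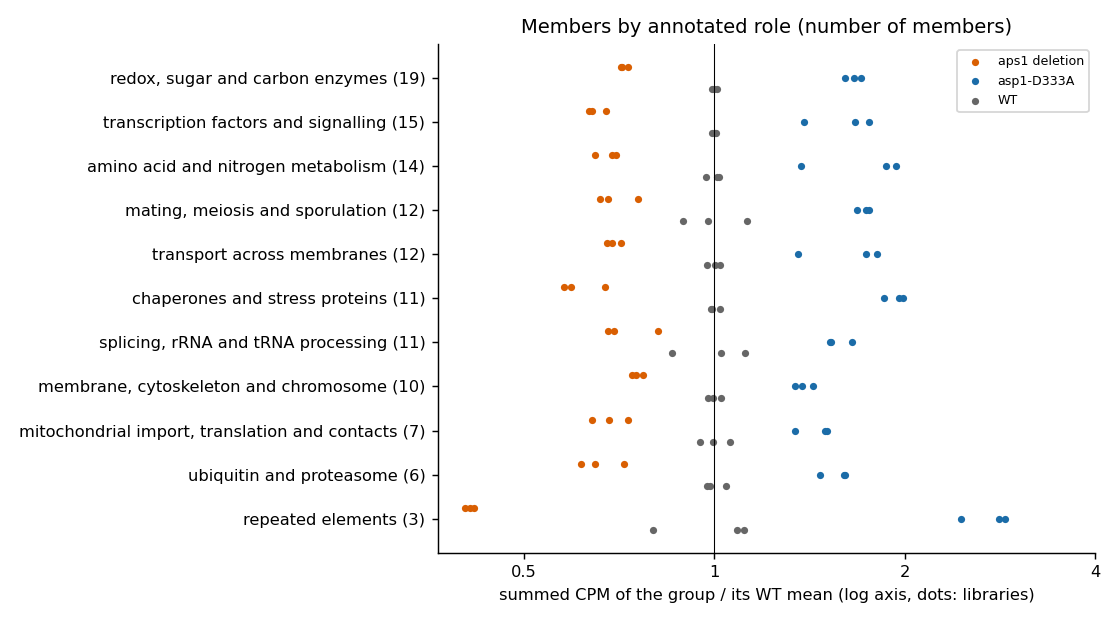
Rows are the 11 classes of members by annotated product, with the number of members in brackets, and each dot is the summed CPM of a class in 1 library over its WT mean, on a log axis. In every row the 3 aps1 deletion dots lie left of the 3 WT dots and the 3 asp1-D333A dots right of them, which the choice of members fixes. In amino acid metabolism and transport, 1 asp1-D333A dot, replicate 3, lies well left of the other 2.

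Amino acid and nitrogen metabolism held 14 members, which summed to 5456 ± 217 CPM in the aps1 deletion, 13880.0 ± 2477 CPM in asp1-D333A and 8046 ± 204 CPM in WT (SD, n = 3 each). Argininosuccinate synthase, the arg12 product, joins citrulline and aspartate late in arginine synthesis, and arg12 had 466, 511 and 525 CPM in the aps1 deletion, 1417, 1464 and 967 CPM in asp1-D333A and 749, 818 and 818 CPM in WT. The other arginine gene was arg5, for a subunit of the carbamoyl-phosphate synthase that feeds that pathway, with 430.1, 472 and 476 CPM in the aps1 deletion, 1159, 1141 and 772 CPM in asp1-D333A and 727, 749.6 and 732 CPM in WT. For both genes the groups did not overlap, and asp1-D333A replicate 3 was the lowest library of its strain.

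Early steps of serine and homoserine synthesis were also among the members, although ser1 and ser3 did not keep both ratios with TMM scaling. The enzymes of ser3 and ser1 catalyse the opening steps from phosphoglycerate to serine. Levels of ser3 were 335, 319 and 319 CPM in the aps1 deletion, 766, 698 and 659 CPM in asp1-D333A and 524, 479 and 502 CPM in WT, and levels of ser1 were 753, 817 and 826 CPM in the aps1 deletion, 1492, 1554 and 1216 CPM in asp1-D333A and 983, 1062 and 1071 CPM in WT. Aspartate semialdehyde dehydrogenase, on the way from aspartate to homoserine, methionine and threonine, is the product of hom2, which had 932, 963 and 963 CPM in the aps1 deletion, 2745, 2869 and 2023 CPM in asp1-D333A and 1277, 1349 and 1317 CPM in WT. Every asp1-D333A library exceeded every WT library for all 3 genes. Histidinol dehydrogenase, the last enzyme of histidine synthesis, is encoded by his2, whose means were 401 ± 17.01 CPM in the aps1 deletion, 723 ± 70.8 CPM in asp1-D333A and 545 ± 4.87 CPM in WT.

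The rest of each of these pathways mostly fell outside the thresholds. Of 8 arginine genes looked up after the members were known, 2 were members. The nearest of the others was arg4, for the other subunit of the Arg5 enzyme, at 0.644 of WT in the deletion strain and 1.24 times WT in asp1-D333A, while arg6 was at 0.899 and 0.858. In serine synthesis ser2, which follows Ser1, lay the other way, at 1.18 of WT in the deletion strain and 0.530 in asp1-D333A. Of 7 histidine genes his2 was the sole member, and his3 missed the lower threshold at 0.773 with 1.75 times WT in asp1-D333A. Aspartate kinase, hom3, which acts just before Hom2, was at 0.724 of WT in the deletion and 0.995 in asp1-D333A. These are ratios of means with no test.

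Other members of this class handle amino groups. The imine deaminase gene mmf1, whose product clears reactive intermediates of amino acid breakdown, had 429, 492 and 520.0 CPM in the aps1 deletion, 1917, 2098 and 1317 CPM in asp1-D333A and 863, 879 and 906 CPM in WT. Per kb of annotated transcript mmf1 was the most abundant member in WT, at 1570.2 CPM per kb, ahead of hom2 at 1059. The aromatic aminotransferase SPAC56E4.03 had 766, 829 and 876 CPM in the aps1 deletion, 2956, 3117 and 1990.3 CPM in asp1-D333A and 1127, 1195 and 1219.7 CPM in WT. Its asp1-D333A mean was 2.28 times WT. The gene aca1, for an acetyltransferase that detoxifies a proline analogue, had 47.7, 49.9 and 48.1 CPM in the aps1 deletion, 302, 332.7 and 187 CPM in asp1-D333A and 114, 115 and 119 CPM in WT. It lay at 0.419 of WT in the deletion, the lowest of the class. Means of isp7, a 2-oxoglutarate-dependent oxygenase gene linked to nitrogen supply, were 96.2 ± 6.69 CPM in the aps1 deletion, 288 ± 9.72 CPM in asp1-D333A and 166 ± 7.29 CPM in WT. The remaining members here, SPBC8E4.03 (an agmatinase), caa1 (aspartate aminotransferase), sno1 (annotated as a glutamine aminotransferase subunit) and SPAC823.09c (annotated as a threonine aspartase), had ratios within 0.419 to 0.769 and 1.31 to 2.36, the ranges of the class in the deletion strain and asp1-D333A. All 14 separated by library in both strains, and 7 of the 14 kept both ratios after TMM scaling. Those that did not were arg5, ser1, ser3, his2, SPBC8E4.03, caa1 and SPAC823.09c.

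Transport across membranes, with 12 members, covered carriers for nitrogen compounds, vitamins and anions. The amino acid permease gene isp5, named for its induction during nitrogen starvation, had 8.86, 7.70 and 8.59 CPM in the aps1 deletion, 35.3, 38.1 and 45.4 CPM in asp1-D333A and 14.6, 18.6 and 20.0 CPM in WT. The ammonium transporter gene amt1 had 62.4, 63.9 and 71.7 CPM in the aps1 deletion, 129.7, 138 and 125 CPM in asp1-D333A and 98.1, 87.1 and 96.3 CPM in WT. For both genes all libraries of the 3 strains separated. SPBC23G7.13c, annotated as a urea transporter, had 1.32, 0.616 and 0.691 CPM in the aps1 deletion, 14.4, 12.9 and 4.22 CPM in asp1-D333A and 5.15, 6.05 and 3.98 CPM in WT. It was the member with the lowest ratio in the deletion, 0.173, but asp1-D333A replicate 3 lay within the WT range. Its ratio of asp1-D333A to WT was 2.08 with all libraries, 2.70 without replicate 3 and 0.834 for replicate 3 alone. The thiamine transporter SPCC794.03 was at 3.04 ± 0.598 CPM in the aps1 deletion, 26.8 ± 8.70 CPM in asp1-D333A and 5.45 ± 0.722 CPM in WT. Further members were meu22 (an amino acid permease), liz1 (pantothenate uptake), oac1 (an anion carrier), opt3 (oligopeptides), SPAC2E12.03c (vacuolar basic amino acids) and SPCPB1C11.03 (cysteine). The class summed to 522 ± 13.7 CPM in the aps1 deletion, 1232 ± 183 CPM in asp1-D333A and 754 ± 18.5 CPM in WT, and 9 of the 12 members separated in both strains. With TMM scaling 8 of the 12 kept both ratios, and amt1 did not.

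Chaperones and stress proteins, 11 members, had a median ratio of 0.526 in the deletion and summed to 1336 ± 107 CPM in the aps1 deletion, 4206 ± 150.3 CPM in asp1-D333A and 2174 ± 39.1 CPM in WT. The gene hsp9, for a small membrane-associated heat shock protein, had 291, 420.4 and 320.4 CPM in the aps1 deletion, 1427, 1603 and 1060.0 CPM in asp1-D333A and 701, 730.2 and 672 CPM in WT. Ssa1, a cytosolic Hsp70 chaperone, was represented by 37.1, 51.1 and 49.2 CPM in the aps1 deletion, 187, 196 and 347 CPM in asp1-D333A and 112, 114 and 82.3 CPM in WT; reads of ssa1 could be split with the near-identical ssa2, so its values are uncertain. The groups did not overlap for either gene. The gene ddr48, for a stress protein, had 1.92, 2.31 and 1.93 CPM in the aps1 deletion, 89.6, 93.5 and 55.3 CPM in asp1-D333A and 4.77, 5.16 and 3.92 CPM in WT, and its 17.2-fold higher mean there was the largest ratio among members. Levels of ecl1, which extends chronological lifespan when overexpressed, were 28.6, 24.6 and 29.5 CPM in the aps1 deletion, 339, 357 and 166 CPM in asp1-D333A and 56.0, 54.7 and 62.8 CPM in WT. Levels of rtc3 were 32.1, 41.8 and 39.4 CPM in the aps1 deletion, 261, 271 and 259 CPM in asp1-D333A and 118, 119 and 84.7 CPM in WT. For all 3 genes the aps1 deletion was at less than 0.5 of WT and each asp1-D333A library was above WT. The other members included lsd90, at 0.526 and 4.19 of WT in the deletion strain and asp1-D333A, ish1, at 0.620 and 1.60, and uvi15, at 0.723 and 1.53. With TMM scaling 9 of the 11 members of the class kept both ratios.

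A set of heat-inducible chaperone partners behaved differently within asp1-D333A. Fes1 recharges Hsp70 with nucleotide, Wos2 is a p23-type partner of Hsp90 and Wis2 is a cyclophilin of the same machinery. The gene fes1 had 131, 125 and 244 CPM in the asp1-D333A libraries 1, 2 and 3, wos2 had 583, 549 and 975 CPM and wis2 had 314, 289 and 543 CPM, against WT means of 106, 411 and 284 CPM. Replicate 3 was the highest library for each. Without it the ratios to WT were 1.21 for fes1, 1.38 for wos2 and 1.06 for wis2, so that fes1 and wis2 would no longer reach 1.3. For ssa1 the ratio was 1.86 without replicate 3, beside 2.37 with it. All 4 genes were lower in every aps1 deletion library than in every WT library.

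**Figure D3:**
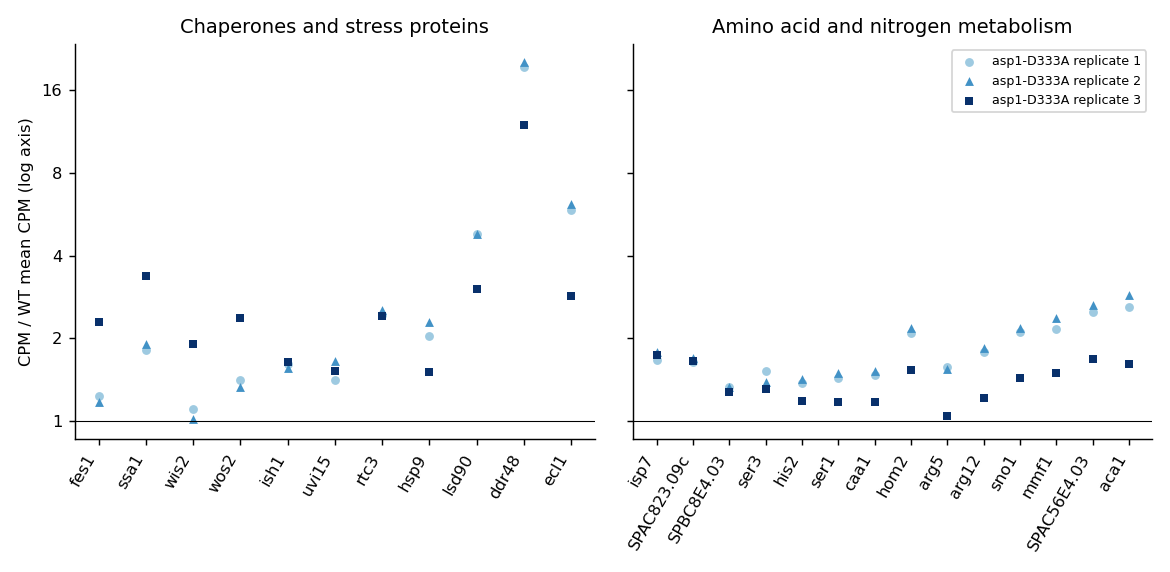
Points are asp1-D333A libraries, with CPM over the WT mean on a log axis, for the 11 chaperone and stress members (left) and the 14 amino acid and nitrogen members (right). Replicate 3, the squares, is above the other libraries for fes1, ssa1, wis2 and wos2 and below them for ecl1, ddr48, lsd90, hsp9 and 12 of the 14 amino acid and nitrogen genes.

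Across all members, 11 were at least 1.5 times higher in asp1-D333A replicate 3 than in the mean of replicates 1 and 2, and 15 were at least 1.5 times lower there. Among the 4839 coding identifiers with at least 3 CPM, 112 (2.31%) were that much higher and 36 (0.744%) that much lower. The higher ones included SPCC663.08c, a short-chain dehydrogenase gene at 2.57 times the others, mbf1, for a transcriptional coactivator, and hri2, for a kinase that slows translation initiation under stress. The lower ones included ecl1, SPCC70.08c, pas1 and aca1. Without this library 148 genes met the rule, 141 of them among the 153. Of the 12 members lost, 7 no longer reached 1.3 times WT: wis2, hri2 and fes1, at 1.06, 1.11 and 1.21, ssr4 at 1.23, vps32 at 1.25, pdx1 at 1.28 and faf1 at 1.29. The other 5, meu27, Tf2-2, mug155, mug14 and wtf22, had a mean under 3 CPM over the remaining libraries.

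Redox, sugar and carbon enzymes formed the largest named class, with 19 members summing to 1790.0 ± 24.6 CPM in the aps1 deletion, 4128 ± 114 CPM in asp1-D333A and 2488 ± 19.1 CPM in WT. Sulfiredoxin, which reactivates overoxidised peroxiredoxin, is encoded by srx1, which had 6.38, 5.29 and 5.19 CPM in the aps1 deletion, 74.8, 89.9 and 74.5 CPM in asp1-D333A and 13.7, 11.9 and 10.9 CPM in WT. Its libraries separated by strain, at 0.461 of WT in the deletion and 6.54 times WT in asp1-D333A. Zwf1 carries out the first, NADPH-yielding step of the pentose phosphate pathway, and zwf1 had 497, 530.3 and 525 CPM in the aps1 deletion, 984, 972 and 919 CPM in asp1-D333A and 716, 739 and 693 CPM in WT. Among the members annotated as oxidoreductases, zta1 was at 0.756 and 1.88 of WT in the deletion strain and asp1-D333A, SPAC5H10.10 at 0.611 and 1.85, SPAC19G12.09 at 0.644 and 2.18, and SPAPB24D3.08c at 0.762 and 4.11. Iron-sulfur cluster assembly was represented by isu1, the scaffold, with means of 203 ± 11.3 CPM in the aps1 deletion, 427 ± 53.1 CPM in asp1-D333A and 285 ± 30.8 CPM in WT, and by grx4, a monothiol glutaredoxin that also senses iron, with 121 ± 14.8, 244 ± 9.14 and 169.5 ± 3.07 CPM in the same strains. The maltase gene agl1, which digests disaccharides outside the cell, had 13.8, 16.2 and 15.7 CPM in the aps1 deletion, 38.9, 39.6 and 32.8 CPM in asp1-D333A and 22.7, 22.8 and 20.1 CPM in WT. In 18 of the 19 genes both strains separated from WT. The exception was fau1, for folate metabolism, whose asp1-D333A libraries overlapped WT. With TMM scaling 10 of the 19 kept both ratios, and zwf1, zta1 and SPAPB24D3.08c were among those that did not.

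The ubiquitin system and the proteasome were represented by 6 members. The deubiquitinase gene ubp11 had 44.1, 46.1 and 47.2 CPM in the aps1 deletion, 196, 202 and 131 CPM in asp1-D333A and 108, 110.1 and 107 CPM in WT, and was at 0.423 of WT in the deletion. The others were rpn10, a ubiquitin receptor of the proteasome; uch2, a deubiquitinase bound to it; pof1, an F-box subunit of an SCF ligase; mrz1, a ligase; and wss2, a metalloprotease. Apart from ubp11 their ratios in the deletion lay between 0.730 (pof1) and 0.767 (wss2). Ratios to WT in asp1-D333A were between 1.52 and 1.63. All 6 separated by library in both strains, and 3 of the 6 kept both ratios with TMM scaling.

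Transcription factors and signalling proteins made up 15 members. Pas1, a cyclin of the Pef1 kinase, is encoded by pas1, which had 312, 307 and 339 CPM in the aps1 deletion, 1124, 1186 and 678 CPM in asp1-D333A and 585, 563 and 577 CPM in WT. Nutrient signalling was represented by pib2, a phosphoinositide-binding glutamine sensor upstream of TORC1, with means of 34.1 ± 1.95 CPM in the aps1 deletion, 87.8 ± 11.5 CPM in asp1-D333A and 52.7 ± 2.31 CPM in WT, and by stm1, for a protein of G-protein-coupled receptor type. The sequence-specific factors were atf31, of the bZIP type, at 0.680 and 3.70 of WT in the deletion strain and asp1-D333A, and rsv2, a zinc finger factor, at 0.720 and 1.71. General factors were present too, TFIIB (sua7) at 0.731 and 2.11 and TFIIIA (sfc2) at 0.759 and 1.74. Stc1, which links Argonaute to the histone methyltransferase complex in heterochromatin, and Ssr4, a SWI/SNF and RSC subunit, completed the chromatin-related members. In 14 of the 15 both strains separated, the exception being mug151, whose aps1 deletion libraries overlapped WT. With TMM scaling 8 of the 15 kept both ratios.

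RNA processing, counted together with the ribosomal protein gene rpl4102, contributed 11 members. Spliceosome genes among them were cwf7, cwf18, cwf21, cay1 and prp18, and cms1, faf1 and rrp14 act on ribosomal RNA. Ratios in this class were narrow, 0.704 to 0.763 in the deletion strain and 1.32 to 1.97 in asp1-D333A. Libraries overlapped more often here: both strains separated in 5 of the 11, because aps1 deletion and WT libraries overlapped in the other 6, and 4 of the 11 kept both ratios with TMM scaling. The gene trm10, for a tRNA methyltransferase, shows this, with 28.9, 24.8 and 23.02 CPM in the aps1 deletion, 67.3, 61.3 and 69.4 CPM in asp1-D333A and 28.5, 34.0 and 39.8 CPM in WT. Its aps1 deletion replicate 1 exceeded WT replicate 4. The gene rpl4102, for a ribosomal protein, has a near-identical copy, so its values are uncertain.

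The 12 mating, meiosis and sporulation genes were at low levels in these growing cells and summed to 55.5 ± 4.13 CPM in the aps1 deletion, 137 ± 3.03 CPM in asp1-D333A and 79.5 ± 9.43 CPM in WT. Of the 9 members with a WT mean under 3 CPM, mug108, meu27, mug155, tht2 and ppk31 were in this class. The gene mug108 had 0.506, 0.667 and 0.840 CPM in the aps1 deletion, 11.02, 10.9 and 9.78 CPM in asp1-D333A and 1.81, 1.64 and 1.60 CPM in WT, and meu27 had 0.405, 0.667 and 0.691 CPM in the aps1 deletion, 7.91, 7.82 and 11.1 CPM in asp1-D333A and 1.10, 0.843 and 1.70 CPM in WT, both many times higher in every asp1-D333A library than in any WT library. Fus1, the formin that focuses actin at the mating cell tip, had 13.8, 10.8 and 9.48 CPM in the aps1 deletion, 21.7, 24.3 and 23.4 CPM in asp1-D333A and 14.0, 15.1 and 18.8 CPM in WT. The meiotic septin gene spn7 had 9.72, 7.134 and 7.90 CPM in the aps1 deletion, 17.04, 17.1 and 18.3 CPM in asp1-D333A and 8.61, 11.3 and 14.2 CPM in WT, and the kinase gene ppk31 had 2.58, 1.95 and 1.83 CPM in the aps1 deletion, 5.63, 5.18 and 5.30 CPM in asp1-D333A and 2.41, 3.32 and 3.25 CPM in WT. For spn7 and ppk31 the aps1 deletion overlapped WT. Both strains separated in 8 of the 12, and 10 of the 12 kept both ratios with TMM scaling.

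Smaller classes followed the same order of strains. The 10 genes for membranes, the cytoskeleton and chromosomes included orm1, a regulator of sphingolipid synthesis with 405 ± 5.47 CPM in the aps1 deletion, 706 ± 44.8 CPM in asp1-D333A and 530.3 ± 7.87 CPM in WT, vps32 (ESCRT-III), orc6 (origin recognition), dad4 (kinetochore) and the pair rng8 and rng9, whose products act together with a myosin. Of these 10, 2 kept both ratios with TMM scaling. The 7 mitochondrial genes, such as tim8 (protein import), mdm34 (contacts with the endoplasmic reticulum) and mrpl15 (ribosome), summed to 241 ± 15.9 CPM in the aps1 deletion, 510.0 ± 32.0 CPM in asp1-D333A and 352 ± 19.4 CPM in WT. Of these 7, 5 kept both ratios with TMM scaling. The repeated elements were 2 Tf2 retrotransposons and the pseudogene wtf22. Tf2-11 had 1.27, 1.69 and 1.23 CPM in the aps1 deletion, 19.8, 19.5 and 14.8 CPM in asp1-D333A and 3.73, 5.06 and 5.32 CPM in WT, and Tf2-2 had 1.27, 0.873 and 0.988 CPM in the aps1 deletion, 5.78, 5.402 and 6.91 CPM in asp1-D333A and 2.80, 3.174 and 3.67 CPM in WT. Copies of Tf2 are nearly identical, so how reads were divided among them is uncertain.

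No role is described for 33 members, and several of them had large ratios. SPCC70.08c, annotated as a methyltransferase, had 21.2, 21.6 and 24.5 CPM in the aps1 deletion, 269.9, 279 and 133 CPM in asp1-D333A and 74.3, 72.3 and 85.3 CPM in WT. SPBC1271.07c, annotated as an acetyltransferase, had 19.6, 20.3 and 18.2 CPM in the aps1 deletion, 144, 142 and 125 CPM in asp1-D333A and 59.6, 58.5 and 68.1 CPM in WT. SPAC637.03 had 35.5, 36.3 and 34.9 CPM in the aps1 deletion, 191, 216 and 194 CPM in asp1-D333A and 85.4, 79.7 and 79.0 CPM in WT. For these 3 genes the strains did not overlap, and the deletion was at 0.290, 0.312 and 0.437 of WT. SPBC83.12 had 2.03, 2.104 and 1.58 CPM in the aps1 deletion, 15.7, 13.8 and 10.9 CPM in asp1-D333A and 3.23, 3.37 and 4.60 CPM in WT. Chosen after their values were seen, SPCC737.04 had 107, 113 and 100.1 CPM in asp1-D333A against a WT mean of 9.98 CPM, and the pseudogene SPCC18B5.02c had 54.2, 53.9 and 86.7 CPM against 4.76 CPM. In the aps1 deletion these 2 were at 0.650 and 0.738 of WT, and the libraries of SPCC18B5.02c overlapped WT there. Of the 33, 24 separated in both strains, and 24 kept both ratios with TMM scaling.

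**Figure D4:**
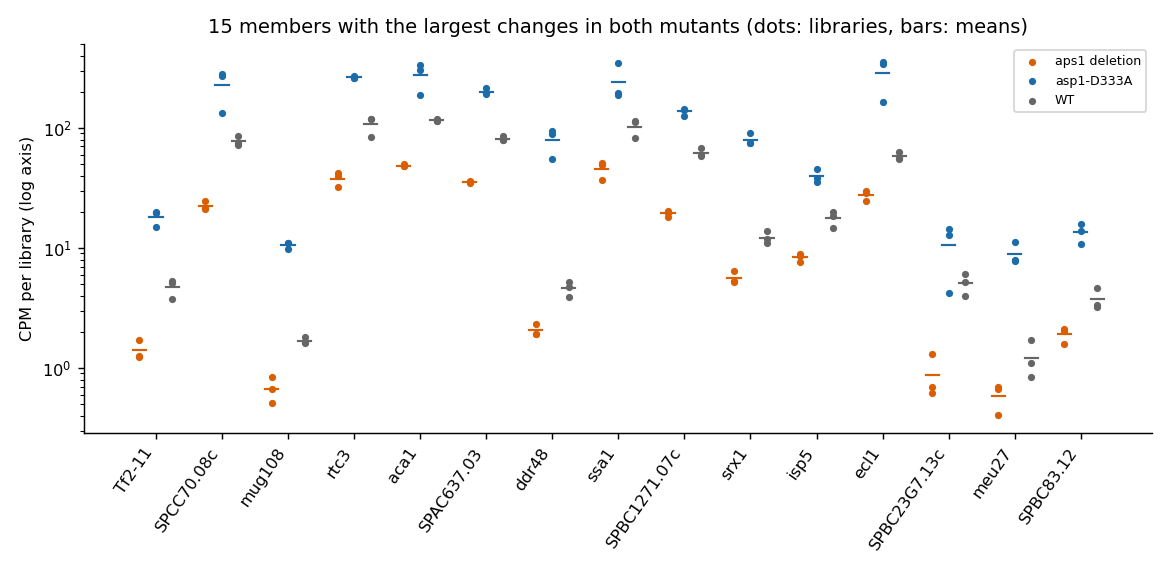
The 15 members with the largest changes in both strains are shown with 1 dot per library and a bar for each mean, in CPM on a log axis, with the aps1 deletion left, asp1-D333A in the middle and WT right. The dots of the 3 strains do not overlap for any gene except SPBC23G7.13c, where asp1-D333A replicate 3, at 4.22 CPM, falls among the WT dots.

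The members had lower medians of level and length than coding features at large. Their median WT level was 34.1 CPM, beside 72.3 CPM over the 5003 coding features tested, and per kb of transcript 24.6 beside 39.3 CPM. Annotated transcripts had a median of 1321 nt, beside 1702 nt. A single exon was annotated for 102 members and for 2551 of the 5003. Chromosomes I, II and III carried 67, 53 and 32 members, and 2269, 1819 and 911 of the coding features tested, with 1 member not matched to the annotation. The spread between replicates was wider: the median coefficient of variation was 10.3%, 10.7% and 10.01% for members in the aps1 deletion, asp1-D333A and WT, beside 6.69%, 8.47% and 5.12% for coding features. Level and spread bear on which genes pass a ratio threshold, and their part in the choice was not tested. The 32 genes with the opposite pattern had a median WT level of 113 CPM and a median length of 1902 nt.

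Features next to members were not used by the rule and could be tested. Counted were annotated non-coding RNAs that overlap a member on the opposite strand or end within 2 kb upstream of it on the same strand, 46 in all, 33 of them opposite and 13 upstream. Of the 46, 18 (39.1%) fell and 5 (10.9%) rose in the aps1 deletion, against 25.7% and 1.71% of 933 such neighbours of other coding genes. In asp1-D333A 23 (50%) rose and 1 (2.17%) fell, against 43.3% and 11.4% of the 933. Among all 1126 non-coding features tested, 26.5% fell and 2.22% rose in the aps1 deletion, and 43.5% rose and 11.1% fell in asp1-D333A. By calls, the prevailing directions, lower in the deletion strain and higher in asp1-D333A, were the same for the members' neighbours and for non-coding features in general, and the differences in share were not tested. Of the 13 upstream neighbours alone, 4 fell and 1 rose in the aps1 deletion. Their median log2 change there was 0.16, beside -0.39 for 537 upstream neighbours of other coding genes. Leaving out aps1 deletion replicate 1, 2 or 3 gave 13 calls in that strain in place of 23, and leaving out WT replicate 4 or 6 gave 15.

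Some neighbours moved in parallel with their gene. SPNCRNA.1360, opposite arg12, had 3.34, 3.13 and 2.77 CPM in the aps1 deletion, 30.7, 28.3 and 21.8 CPM in asp1-D333A and 7.78, 7.69 and 7.23 CPM in WT. On the log2 scale it changed by -1.24 (SE 0.16) in the deletion strain, where the quasi-likelihood test of edgeR gave a Benjamini-Hochberg adjusted p of 0.00023. In asp1-D333A the change was 1.70 (SE 0.14), and the same edgeR test gave an adjusted p of 4.7e-07. Its counts were 0.527% to 2.25% of those of arg12, a level at which reads from the sense strand could matter, and whether counting used the strand is not given in the sources used here. SPNCRNA.1344, opposite SPBC1271.08c, a member of no described role next to tgp1, had 2.13, 2.26 and 1.48 CPM in the aps1 deletion, 22.9, 23.5 and 22.6 CPM in asp1-D333A and 7.40, 8.38 and 9.14 CPM in WT. It fell by 2.03 (SE 0.16) in the deletion strain and rose by 1.33 (SE 0.12) in asp1-D333A on the log2 scale, and edgeR's adjusted p-values were 1.8e-06 and 1.4e-06. Further neighbours called lower in the deletion strain and higher in asp1-D333A included SPNCRNA.1343, upstream of SPBC1271.08c, SPNCRNA.1694, upstream of SPBC8E4.03, and SPNCRNA.431, upstream of grx4. On the opposite strand they included SPNCRNA.615, SPNCRNA.1230, SPNCRNA.677 and SPNCRNA.903. Counts of SPNCRNA.1230 were 1.14% to 3.22% of those of zta1, and counts of SPNCRNA.615 were 3.22% to 8.12% of those of SPAC5H10.10. The doubt about reads from the sense strand holds for them too. SPNCRNA.839, upstream of cwf21, was called higher in both strains.

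Others did not follow their gene. SPNCRNA.1026, opposite fus1, fell in the aps1 deletion by 1.21 on the log2 scale (adjusted p 1.6e-05, edgeR's quasi-likelihood test), and was -0.07 (SE 0.11) in asp1-D333A (adjusted p 0.58, edgeR). SPNCRNA.1153, opposite SPCC18B5.02c, rose in both strains, by 0.50 (SE 0.11) in the deletion strain and 0.83 (SE 0.11) in asp1-D333A on the log2 scale, with edgeR adjusted p-values of 0.0074 and 1.9e-05. SPNCRNA.1588, opposite spn7, rose by 1.23 (SE 0.16) in asp1-D333A (adjusted p 2.2e-05, edgeR), and its change of 0.53 (SE 0.17) in the deletion strain (edgeR, adjusted p 0.043) was lost when any library other than asp1-D333A replicate 3 was left out. A pair chosen after the values were seen each had a call against its gene in a single strain. SPNCRNA.832, opposite ddr48, had 8.86, 8.93 and 9.53 CPM in the aps1 deletion, 4.13, 3.29 and 7 CPM in asp1-D333A and 7.34, 7.98 and 8.62 CPM in WT, and was lower in asp1-D333A by a log2 change of -0.87 (SE 0.21) (edgeR, adjusted p 0.0029). SPNCRNA.1292, opposite SPCC70.08c, had 16, 15.1 and 13.1 CPM in the aps1 deletion, 9.27, 7.38 and 10.13 CPM in asp1-D333A and 8.93, 7.79 and 9.30 CPM in WT, and rose by 0.82 (SE 0.13) in the deletion strain (edgeR, adjusted p 0.00097). SPNCRNA.832 changed by 0.25 (SE 0.20) in the deletion strain (edgeR, adjusted p 0.44), and SPNCRNA.1292 by -0.09 (SE 0.13) in asp1-D333A (edgeR, adjusted p 0.56). In both cases the RNA and the gene on the opposite strand were each highest in a different strain.

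**Figure D5:**
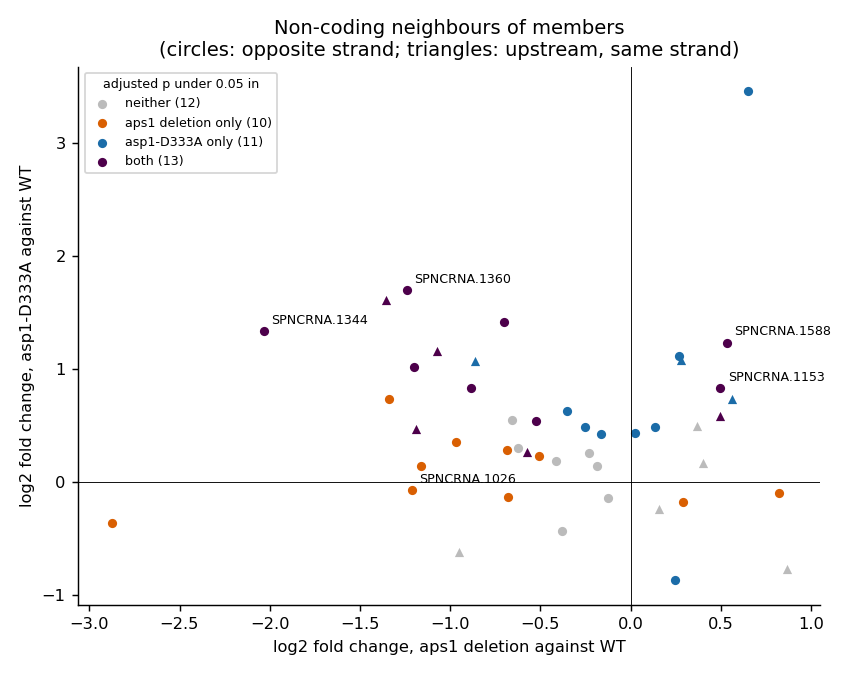
Each symbol is 1 of the 46 non-coding neighbours, with its log2 fold change against WT in the aps1 deletion (horizontal) and in asp1-D333A (vertical). Circles overlap the member on the opposite strand, triangles end upstream on the same strand, and colours give the strains in which edgeR's adjusted p was under 0.05. Most symbols lie left of 0 and above 0, and 5 called ones lie to the right in the aps1 deletion.

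Coding neighbours were also tested. The nearest coding gene on each side of a member, where it was not itself a member, gave 282 genes. Of these, 30 (10.6%) rose and 9 (3.19%) fell in the aps1 deletion, against 8% and 4.12% of the 4850 coding features that are not members. In asp1-D333A 83 (29.4%) rose and 99 (35.1%) fell, against 25.3% and 36.2%. With upper-quartile scaling 25 rose and 15 fell in the aps1 deletion, and 127 rose and 63 fell in asp1-D333A. Calls in the aps1 deletion numbered 22 without its replicate 2, 23 without its replicate 3 or WT replicate 6, and 65 without asp1-D333A replicate 3. Few members adjoined another member: 5 pairs were neighbours, SPAC1F12.06c with ser1, SPBC1105.13c with rsv2, SPBC1271.07c with SPBC1271.08c, hri2 with sno1 and txc1 with SPBP35G2.17, and 2 of the pairs lay on the same strand. Overlap with another coding gene was annotated for 49 members on the opposite strand and for 8 on the same strand. Among the 8 were ser1, spn7, trm10, mug108 and zta1, whose reads cannot be assigned with certainty.

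Members also lay beside phosphate genes or genes near them that moved the other way. SPBC1271.08c neighbours the glycerophosphodiester transporter gene tgp1, which had 123, 172 and 162 CPM in the aps1 deletion, 24.3, 23.5 and 16.6 CPM in asp1-D333A and 20.6, 21.5 and 26.8 CPM in WT. Against WT tgp1 rose by 2.80 (SE 0.19) on the log2 scale in that deletion (edgeR, adjusted p 8.3e-06), and in asp1-D333A its change was -0.23 (SE 0.19) (edgeR, adjusted p 0.33). SPBC1271.08c itself had 35.3, 35.7 and 40.2 CPM in the aps1 deletion, 246, 248 and 147 CPM in asp1-D333A and 60.3, 60 and 74.5 CPM in WT. Its neighbour rose in the strain in which it was lowest. The meiotic gene mug14 neighbours the phosphate transporter gene pho841, which rose by 0.91 (SE 0.08) in the deletion strain and changed by -0.76 (SE 0.08) in asp1-D333A, with edgeR adjusted p-values of 5.1e-06 and 2.4e-06. SPBC8E4.03 neighbours ecl3, which lies next to pho84, with edgeR log2 changes of 2.03 (SE 0.13) and -2.21 (SE 0.17) in the deletion strain and asp1-D333A, and hom2 neighbours spx2, with 0.63 (SE 0.10) and -0.59 (SE 0.10), all 4 with edgeR adjusted p-values of 0.00103 or lower. These pairs were chosen after the values were seen.

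The 20 gene lists of known programmes, chosen with earlier results known, held 13 of the 153 members, so most members belong to none. Counts below give the tested genes of a list called higher and lower by edgeR's quasi-likelihood test at an adjusted p under 0.05, members included, and medians are log2 changes. Of all features 6.73% were called higher and 9.83% lower in the aps1 deletion, with a median of -0.01, and of coding features 7.76% and 5.96%. In asp1-D333A 30.3% of all features were called higher and 30.8% lower, with a median of 0.01, and of coding features 27.4% and 35.1%. Upper-quartile scaling moved the asp1-D333A median of all features by 0.17, so list medians closer to 0 than that have no settled direction. Over the 20 lists together 35 calls were higher and 43 lower in the deletion strain, and 66 higher and 89 lower in asp1-D333A; with upper-quartile scaling the counts were 27 and 52 in the deletion strain and 94 and 72 in asp1-D333A. Without asp1-D333A replicate 3 they were 44 and 63 in the deletion strain and 74 and 90 in asp1-D333A.

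Nitrogen starvation genes gave the most members, isp5, isp7 and amt1, of 15 tested. In the aps1 deletion 3 were called higher and 7 lower (median -0.17), and in asp1-D333A 10 higher and 3 lower (median 0.33). The list did not move as a block: isp4, an oligopeptide transporter gene, changed by 0.79 (SE 0.08) in the deletion strain and -1.39 (SE 0.08) in asp1-D333A, and mei2, the switch to meiosis, by -1.27 (SE 0.09) and -2.90 (SE 0.10), with edgeR adjusted p-values of 2.1e-05 or lower.

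Stress lists held few members. Of 20 Sty1/Atf1 stress genes, with hsp9 as the member, 0 were higher and 7 lower in the aps1 deletion (median -0.29), and 7 were higher and 4 lower in asp1-D333A (median 0.08). Among the 7 were tps1, for trehalose synthesis, at -0.77 (SE 0.07) and the catalase gene ctt1 at -0.64 (SE 0.12), with edgeR adjusted p-values of 1.6e-05 and 0.0052. Of 14 heat shock genes, with ssa1 and wos2 as members, 0 were higher and 1 lower in the aps1 deletion (median -0.24), and 4 were higher and 2 lower in asp1-D333A (median 0.22). Of 11 Pap1 oxidative stress genes, with srx1 as the member, 1 was higher and 2 lower (median -0.01) in the aps1 deletion, and 7 higher and 2 lower (median 0.59) in asp1-D333A.

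Metal and phosphate lists held no member. For iron starvation the rule itself set aside several genes by name. Of 13 tested, 0 were higher and 4 lower in the aps1 deletion (median -0.19) and 8 higher and 1 lower in asp1-D333A (median 1.14). The ferric reductase gene frp1 changed by -1.16 (SE 0.19) and 2.62 (SE 0.15), the iron oxidase gene fio1 by -1.07 (SE 0.12) and 2.03 (SE 0.10), and the permease gene fip1 by -1.03 (SE 0.12) and 1.54 (SE 0.11) in the deletion strain and asp1-D333A, with edgeR adjusted p-values of 0.0014 or lower. The gene php4, for a repressor subunit made in iron-poor cells, rose by 1.11 (SE 0.11) in asp1-D333A, with an edgeR adjusted p of 2.2e-06. Of 11 copper and zinc genes 0 were higher and 2 lower in the aps1 deletion (median -0.10), and 5 higher and 2 lower in asp1-D333A (median 0.21). Of 5 phosphate genes 4 were higher and 0 lower in the aps1 deletion (median 1.43), and 0 higher and 3 lower in asp1-D333A (median -0.89), opposite in direction to the members. The acid phosphatase gene pho1 had 6918, 7744 and 7829 CPM in the aps1 deletion, 137, 147 and 91.9 CPM in asp1-D333A and 2219, 2284 and 2679 CPM in WT, and the transporter gene pho84 had 3107, 3153 and 3115 CPM in the aps1 deletion, 95.7, 96.6 and 85.0 CPM in asp1-D333A and 1119.6, 1175 and 1333 CPM in WT. Both rose in the aps1 deletion, by 1.71 (SE 0.16) and 1.43 (SE 0.09), and changed by -4.39 (SE 0.18) and -3.84 (SE 0.10) in asp1-D333A, with edgeR adjusted p-values of 2.1e-05 or lower.

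Lists of mating, meiosis and retrotransposons held 5 members. Of 18 mating genes, with fus1 as the member, 0 were higher and 6 lower in the aps1 deletion (median -0.24), and 1 higher and 13 lower in asp1-D333A (median -0.76), fus1 being the 1 called higher. Of 14 sporulation genes, with spn7 and ppk31 as members, 1 was higher and 3 lower (median -0.17) in the aps1 deletion, and 4 higher and 6 lower (median -0.19) in asp1-D333A. Of 12 meiotic genes controlled by Mmi1, 1 was higher and 2 lower (median 0.15) in the aps1 deletion, and 4 higher and 0 lower (median 0.20) in asp1-D333A. Of 5 Tf2 elements, 2 of them members, 0 were higher and 4 lower (median -1.50) in the aps1 deletion, and 5 higher and 0 lower (median 0.93) in asp1-D333A, with the doubt about copies given above.

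Growth and metabolism lists held 1 member. Of 17 hexose transport and glucose-repressed genes, with agl1 as the member, 3 were higher and 5 lower in the aps1 deletion (median -0.24), and 4 higher and 6 lower in asp1-D333A (median -0.20). In the aps1 deletion the calls were 0 higher and 1 lower of 7 thiamine genes (median -0.01), 3 and 0 of 9 cell separation genes (0.13), 3 and 0 of 13 sulfur genes (0.10), 4 and 0 of 14 sterol genes (0.10), 3 and 0 of 18 respiratory genes (0.14), 2 and 0 of 12 MBF cell cycle genes (0.03) and 6 and 0 of 13 flocculin genes (0.38). In asp1-D333A the same lists had 0 higher and 5 lower thiamine genes (-0.40), 0 and 8 cell separation genes (-0.42), 4 and 4 sulfur genes (-0.07), 3 and 4 sterol genes (0.04), 1 and 12 respiratory genes (-0.26), 0 and 10 MBF genes (-0.69) and 2 and 4 flocculin genes (-0.09). Of the inositol pyrophosphate pair, asp1 was called higher and aps1 lower in the aps1 deletion, and aps1 was called lower in asp1-D333A.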

How the data were processed

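Poly(A) RNA was made into stranded libraries and sequenced in pairs, per the labels' protocols. The authors deposited raw counts per annotated feature for 9 libraries, 3 of each genotype. HISAT2 2.1.0, SAMtools, HTSeq 0.10.0 and DESeq2, and the genome build ASM294v2, are named per the submitters' processing notes; the strand setting and the treatment of reads with several matches are not given in the sources used here. Replicates were not pooled in the table.

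From the counts, CPM was taken over the column total for the rule and for the printed levels. Tests used edgeR 4.0.16 in R 4.3.3 (TMM scaling, filterByExpr with a minimum count of 10, robust quasi-likelihood fit over all 9 libraries, Benjamini-Hochberg adjustment over 6147 features, threshold 0.05), and the test was also run on simulated data. Each printed SE was derived from the test, as the absolute log2 change over the square root of its F value. Summed counts of 18244492 to 22999732 per library set the precision, and a low level rests on few reads. Alternatives were other scalings, no filter, DESeq2 1.42.0, the 6 libraries of a pair, a replicate block, other thresholds and each library left out; the lists without asp1-D333A replicate 3 were added after seeing the data.

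The members, gene lists and classes were chosen with earlier results of these data known. Genes named in full are the 15 members with the largest changes in both strains among those with a mean of at least 50 counts over the 9 libraries, the 10 with the highest counts, members on a list, and neighbouring RNAs with the most pronounced calls. Others named were chosen after their values were seen. Names, lengths, strands and neighbours came from RefSeq ASM294v3, to which 6837 of 6986 identifiers matched, 4 of them by synonym; since the builds differ, no coordinates or sequences are given, and promoter motifs were not examined. Medians of lists and shares of calls are descriptions with no test of the list.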

Additional observations from a re-analysis of the deposited data

How the results depend on the processing

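The 153 members numbered 93 with TMM-scaled library sizes, 45 with ratio thresholds of 0.67 and 1.5, and 14 with 0.5 and 2. With 1 library left out they numbered 117 (without WT replicate 6) to 271 (without aps1 deletion replicate 1). Calls over all features in the aps1 deletion against WT ranged with 1 library left out from 539 (without its replicate 2) to 1668 (without asp1-D333A replicate 3), beside 1018 with all libraries. The members' non-coding neighbours called in that contrast ranged likewise between 13 and 25, beside 23, and their coding neighbours between 22 and 65, beside 39.

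Upper-quartile scaling moved the median of all features by 0.17 on the log2 scale in asp1-D333A against WT, and total counts by 0.13, so the split of calls moved. In the aps1 deletion against WT 414 features were higher and 604 lower, with 296 and 723 under upper-quartile scaling and 244 and 738 with total counts. In asp1-D333A against WT 1863 were higher and 1891 lower, with 2654 and 1288, and 2393 and 1363, under those settings. In the aps1 deletion against asp1-D333A 2086 were higher and 2146 lower, with 1392 and 3034, and 1418 and 2875. No alternative turned the sign of a called change of a member, a neighbouring RNA or a named gene. For members this is largely fixed by the ratios that chose them.

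The replicate numbers did not pair the libraries: aps1 deletion and asp1-D333A libraries of the same number had correlations of 0.146, 0.0607 and -0.131 in their deviations. A replicate block gave 3855 calls between these strains, beside 4232 without it. WT carries other numbers, so no block could be used against WT. Members with low levels rest on few reads, and the cause of the changes between settings was not tested.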
